A study of Homo sapiens with 2 samples.

Results

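The RNA of the clustered histone genes, with the few genes outside the clusters that share their naming, was compared between spheroid and monolayer cultures of A549, a human lung adenocarcinoma line. Members were the genes whose symbol on the array began with HIST1 to HIST4, or in the current naming with H1- and a number, H2AC, H2BC, H3C or H4C. By this rule 69 of the 21359 genes named on the array were members. They were read by 78 probe sets, of which 58 carried the name of 1 gene and 20 were shared by several genes. A probe set is a group of short probes whose brightness is turned into 1 signal. The 58 covered 50 genes, and the remaining 19 genes were read only by shared probe sets. In the spheroid culture A549 cells were kept in suspension without serum, in DMEM/F12 that held N2 supplement, EGF at 20 ng/ml and bFGF at 10 ng/ml. In the monolayer culture A549 cells grew attached in DMEM with 10% FBS. Both were harvested at day 12, and the cultures differed at once in attachment, in base medium, in serum and in the added supplement and growth factors. Each RNA was read on a single Affymetrix human U133 plus 2.0 array. No difference has a replicate check, no test was run, and a gene is called higher or lower only by the size of its ratio.

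Histones are the proteins around which DNA is wound. H2A, H2B, H3 and H4 form the core of the nucleosome and H1 binds the linker DNA between nucleosomes. Most of their genes lie in clusters, are transcribed in S phase and make an RNA that ends in a stem-loop, bound by SLBP, instead of a poly(A) tail. The array protocol primes cDNA from the poly(A) tail, so such RNA is measured poorly, and a minority of the genes is known to make a polyadenylated RNA as well. Variant histones such as H3.3 and H2A.Z are made throughout the cell cycle from genes elsewhere in the genome, as polyadenylated RNA. Coding sequences of 1 class are nearly identical, so a probe set within them can bind RNA of several members, and the gene names of such probe sets are uncertain.

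The deposited signals are linear and had been scaled to a common mean. The median over all probe sets was 119 in spheroid and 108 in monolayer culture, and values below it were raised to it, which is called the floor here. A ratio with only 1 culture above the floor is a bound and is written "at least". As a check of the labels, keratin 18 (KRT18) had 39147 in spheroid and 50068 in monolayer culture. NQO1, an NRF2 target known to be high in A549, had 43240 in spheroid and 43856 in monolayer culture. They come from lists of 5 epithelial and 4 NRF2 target genes measured, all above the floor in both cultures. Of the 5 epithelial genes 2 were higher and 3 lower in spheroid culture. KRT19 was the 1 past 2-fold, with 889 in spheroid and 191 in monolayer culture, 4.64-fold higher. CDH1 was 1.67-fold lower. Of 5 blood and stroma markers measured, PTPRC and COL3A1 were at the floor in both cultures. CD3E had 144 in spheroid and 140 in monolayer culture, PECAM1 had 475 in spheroid and 270 in monolayer culture, and COL1A1 had 618 in spheroid and 852 in monolayer culture. Hepatoma markers were read as well, since a free description of both samples speaks of such cells. Of the 4 measured, APOH had 8136 in spheroid and 919 in monolayer culture. AMBP had 564 in spheroid and 193 in monolayer culture, 2.92-fold higher. AFP was above the floor in spheroid culture alone, at least 2.43-fold higher, and GPC3 in neither. All 3 hepatoma markers above the floor were thus at least 2-fold higher in spheroid culture. CDKN2A, whose locus is deleted in A549, had 251 in spheroid culture and was at the floor in monolayer culture. The part of these markers in the histone values was not tested. In bulk RNA fewer cells of a kind and less RNA per cell cannot be told apart.

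Of the 78 histone probe sets, 25 were above the floor on both arrays, 7 in spheroid culture alone and 2 in monolayer culture alone. The other 44, or 56.4%, were at the floor on both, against 45.1% of all probe sets. Of the 34 above the floor on at least 1 array, 2 were at least 3-fold higher in spheroid culture, against 1.91% of all probe sets, and 1 was 3-fold lower or more, against 1.50%. At a limit of 2-fold, 14 were higher (41.2%), against 6.48% of all probe sets, and 2 were lower, against 4.59%. A probe set that passes the floor only through the culture where it is high must have a ratio away from 1, and 4 of the 14 were of that kind. Among the 25 above the floor in both cultures, 10 were at least 2-fold higher, against 1499 of all 24645 such probe sets (6.08%). The 14 comprised 12 with a single gene name, which belong to 9 genes. Of the 14, 8 have names ending in _s_at or _x_at, by which the manufacturer marks probes that match several transcripts. The median log2 ratio of the 34 was 0.68, against 0.06 for all probe sets, with 27 higher and 7 lower in spheroid culture. Of the 14, 9 belong to the H2B class, which is described first.

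**Figure D1:**
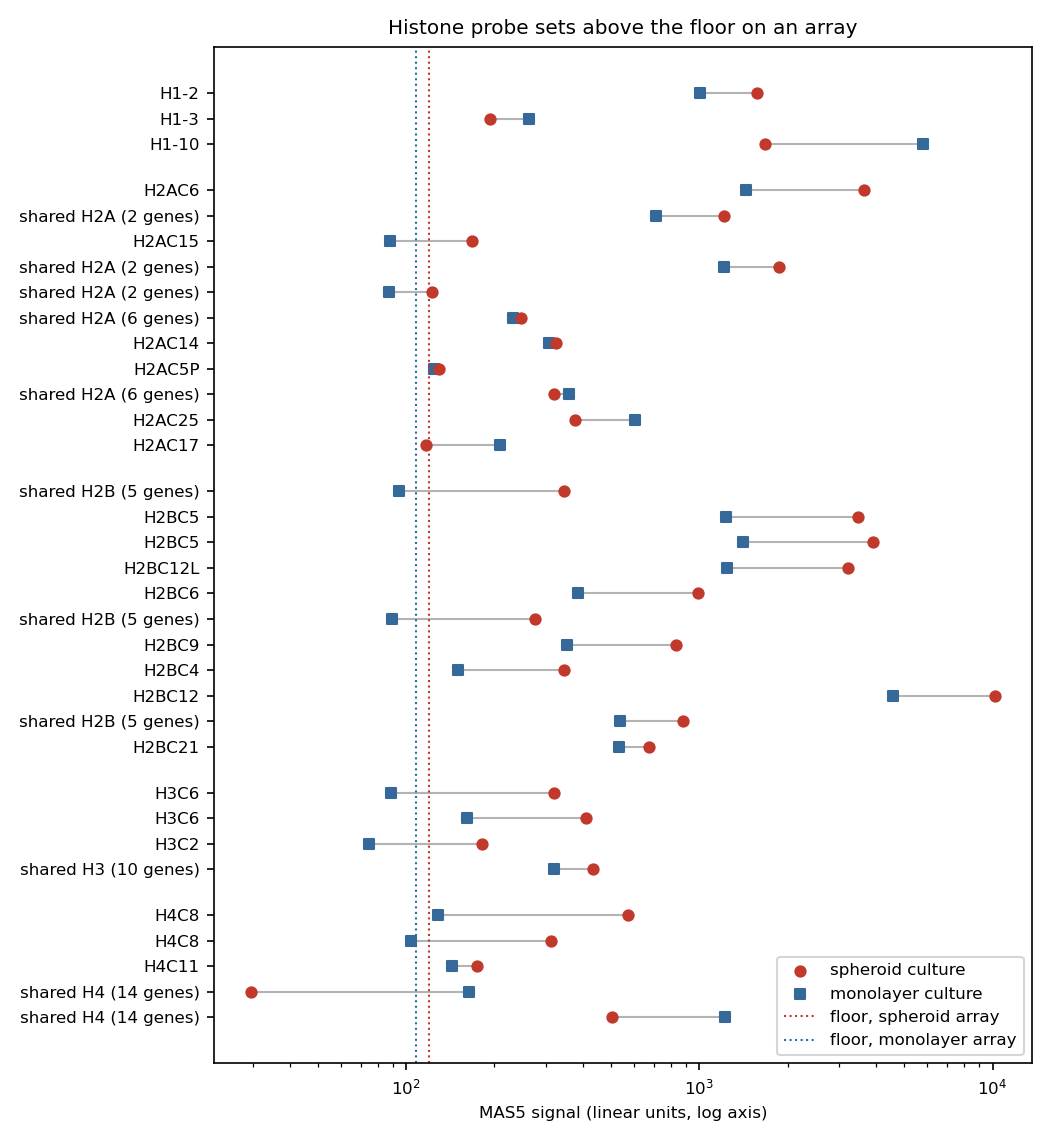
Signal (linear MAS5 units on a log axis) of the histone probe sets above the floor on at least 1 array, with circles for spheroid and squares for monolayer culture, by class and within a class by ratio. All 11 H2B probe sets lie higher in spheroid culture, while H1-10 and the probe sets shared by 14 H4 genes lie lower there.

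H2B pairs with H2A to form the dimers on the outside of the nucleosome core. All 11 H2B probe sets above the floor were higher in spheroid culture, 9 of them at least 2-fold, and their median log2 ratio was 1.35. Of the 11, 2 were above the floor in spheroid culture alone and could only come out higher. The 9 above the floor in both cultures had a median log2 ratio of 1.24. H2BC12 (formerly HIST1H2BK) had 10184 in spheroid and 4588 in monolayer culture, 2.22-fold higher. H2BC5 (HIST1H2BD) was read by a pair of probe sets, with 3920 in spheroid and 1412 in monolayer culture on the first and 3478 in spheroid and 1232 in monolayer culture on the second. The pair gave 2.78-fold and 2.82-fold higher signals, at percentiles 97.9 and 98.0 of all probe sets above both floors. H2BC12 and H2BC5 are among the genes of the family known to make polyadenylated RNA.

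H2BC12L, a copy on chromosome 21 outside the clusters, had 3205 in spheroid and 1245 in monolayer culture, 2.57-fold higher. H2BC6 (HIST1H2BE) had 986 in spheroid and 384 in monolayer culture, also 2.57-fold higher. H2BC9 (HIST1H2BH) had 835 in spheroid and 353 in monolayer culture, 2.36-fold higher. The probe sets of these 3 genes and both of H2BC5 carry the ending _x_at, so their signal may include RNA of other H2B genes, and how much was not tested. H2BC4 (HIST1H2BC) was read by a probe set without that ending and had 347 in spheroid and 151 in monolayer culture, 2.30-fold higher. H2BC4 also shares 3 probe sets with H2BC6, H2BC7, H2BC8 and H2BC10. The first of these had 880 in spheroid and 536 in monolayer culture, 1.64-fold higher. The second had 345 in spheroid culture against 94.5 in monolayer culture, and the third 276 in spheroid culture against 89.2 in monolayer culture. The bounds were 3.19-fold and 2.55-fold higher. Probe sets with the same 5 gene names thus gave the same direction with log2 ratios spread over 0.96. The lowest H2B ratio was that of H2BC21 (HIST2H2BE), in the HIST2 cluster on chromosome 1, with 674 in spheroid and 531 in monolayer culture, 1.27-fold. The H2BC21 probe set ends in _s_at. H2BC1, the testis H2B, and H2BC3, H2BC11, H2BC13, H2BC14, H2BC15 and H2BC17 were at the floor in both cultures, as were both probe sets shared by H2BC8 and H2BC11.

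Promoters of 5 genes past 2-fold are printed because the histone genes of a class are known to share promoter elements. Each is the 250 bases before the RefSeq start on GRCh38.p14, the most downstream start where RefSeq gives several, written 5′ to 3′ on the gene's strand. Capitals mark every match, on either strand, to 3 motifs. The TATA box was searched as TATAAA and the CCAAT box by the letters of its name. For the octamer, known from H2B promoters and bound by OCT1, its core ATTTGCA was searched. Where matches overlap, the capitals run on. The H2B genes come first.
H2BC12, chr6:27146856-27147105, minus strand: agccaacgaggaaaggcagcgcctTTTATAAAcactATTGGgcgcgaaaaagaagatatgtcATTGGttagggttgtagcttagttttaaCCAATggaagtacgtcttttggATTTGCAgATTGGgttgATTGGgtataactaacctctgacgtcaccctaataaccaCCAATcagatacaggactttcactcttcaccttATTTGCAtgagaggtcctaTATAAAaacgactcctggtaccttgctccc
H2BC5, chr6:26157872-26158121, plus strand: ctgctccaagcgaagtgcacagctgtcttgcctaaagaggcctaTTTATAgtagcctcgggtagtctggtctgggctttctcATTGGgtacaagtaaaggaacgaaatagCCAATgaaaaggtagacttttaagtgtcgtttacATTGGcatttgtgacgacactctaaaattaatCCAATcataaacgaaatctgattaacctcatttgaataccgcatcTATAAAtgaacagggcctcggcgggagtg

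H2BC12 has the octamer core at 138 and 49 bases before the start, TATA box matches at 226, 224 and 30 bases and 6 CCAAT boxes. H2BC5 has TATA box matches at 206 and 29 bases, 4 CCAAT boxes and no exact match to the octamer core. Sites that differ from the core by a base were not searched. The ratio of H2BC5, read by _x_at probe sets, was the highest among H2B probe sets named for 1 gene. Whether any motif bears on a ratio was not tested. The RefSeq table held a promoter for 59 of the 69 members. Of 16 clustered H2B promoters 13 held the octamer core, against 1033 of all 27305 promoters in the table (3.78%). All 16 held a CCAAT box, against 32.7% of all promoters, and 12 held a TATA box, against 11.4% of all. The octamer core was in 5 of the 6 clustered H2B genes whose own probe set was above the floor and in 5 of the 7 whose own probe set was at the floor. A match describes the letters in this window and shows no binding.

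The H2A class was mixed. Of its 11 probe sets above the floor, 8 were higher and 3 lower in spheroid culture, with 1 higher by 2-fold or more and none lower by as much. The median log2 ratio was 0.09 and was −0.05 when each array was divided by its median and −0.03 after quantile normalization, so its sign depended on the scaling. H2AC6 (HIST1H2AC), also known as polyadenylated RNA, had 3638 in spheroid and 1438 in monolayer culture, 2.53-fold higher. The H2AC6 probe set ends in _s_at, so its signal may include RNA of other genes. H2AC18 and H2AC19, identical copies in the HIST2 cluster, share 3 probe sets. The first had 1874 in spheroid and 1210 in monolayer culture, 1.55-fold higher, and the second had 1216 in spheroid and 709 in monolayer culture, 1.72-fold higher. The third was close to the floor, with 123 in spheroid culture against 87.7 in monolayer culture.

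H2AC25 (HIST3H2A), in the small HIST3 cluster on chromosome 1, had 377 in spheroid and 604 in monolayer culture, 1.60-fold lower. The other H2AC25 probe set was at the floor in both cultures. H2AC17 (HIST1H2AM) had 117 in spheroid culture, at the floor, against 208 in monolayer culture, at least 1.75-fold lower. H2AC15 (HIST1H2AK) had 168 in spheroid culture against 88.0 in monolayer culture, at least 1.55-fold higher, and its other probe set was at the floor in both. The low signals of H2AC17 and H2AC15 lie near the floor. A pair of probe sets shared by H2AC11, H2AC12, H2AC13, H2AC15, H2AC16 and H2AC17 had log2 ratios of −0.17 and 0.09. H2AC14 (HIST1H2AJ) had 324 in spheroid and 308 in monolayer culture, and the pseudogene H2AC5P had 130 in spheroid and 124 in monolayer culture. The direction of H2AC14 and H2AC5P flipped under either other scaling. H2AC4, H2AC8 and H2AC16 were at the floor in both cultures.

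The promoter of H2AC6, the 1 H2A gene past 2-fold, has the octamer core on the opposite strand at 129 bases before the start, a TATA box at 31 bases and 3 CCAAT boxes.
H2AC6, chr6:26123922-26124171, plus strand: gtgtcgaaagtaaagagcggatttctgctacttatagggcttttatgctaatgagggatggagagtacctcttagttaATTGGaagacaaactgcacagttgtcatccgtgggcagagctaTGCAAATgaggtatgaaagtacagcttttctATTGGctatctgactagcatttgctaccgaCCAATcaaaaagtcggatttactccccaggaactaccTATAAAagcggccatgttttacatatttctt

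This window overlaps that of H2BC4, which runs the other way. In all, 8 pairs of an H2A and an H2B gene on chromosome 6 had promoter windows that overlap on opposite strands, and H2AC6 and H2BC4 were the 1 such pair with both genes above the floor. Their log2 ratios were 1.34 and 1.20. The octamer core was in 8 of 13 clustered H2A promoters and in none of the H1, H3 or H4 promoters of the clusters. Because the windows of a pair overlap and both strands were searched, a match can count for both genes. The H2A and H2B motif counts are therefore not independent.

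H3 forms with H4 the tetramer at the centre of the nucleosome. Of 10 H3 probe sets 4 were above the floor, all higher in spheroid culture and 2 of them at least 2-fold. Of the 4, 2 were above the floor in spheroid culture alone and could only come out higher. The 2 above the floor in both cultures had log2 ratios of 0.44 and 1.35. H3C6 (HIST1H3E) had 411 in spheroid and 161 in monolayer culture on its first probe set, 2.56-fold higher. On its second it had 320 in spheroid culture against 88.7 in monolayer culture, at least 2.96-fold higher. Neither probe set has the endings that mark several transcripts. H3C2 (HIST1H3B) had 181 in spheroid culture against 74.9 in monolayer culture, at least 1.68-fold higher. The H3C2 probe set ends in _s_at. A probe set shared by 10 H3 genes, H3C6 and H3C2 among them, had 434 in spheroid and 321 in monolayer culture, 1.35-fold higher, and another with the same names was at the floor. H3C1, H3C3, H3C7, H3C8 and H3C11 were at the floor in both cultures, as were both probe sets whose names join H2AC7 with H3 genes. The H3C6 promoter has 4 CCAAT boxes and neither of the other motifs.
H3C6, chr6:26224885-26225134, plus strand: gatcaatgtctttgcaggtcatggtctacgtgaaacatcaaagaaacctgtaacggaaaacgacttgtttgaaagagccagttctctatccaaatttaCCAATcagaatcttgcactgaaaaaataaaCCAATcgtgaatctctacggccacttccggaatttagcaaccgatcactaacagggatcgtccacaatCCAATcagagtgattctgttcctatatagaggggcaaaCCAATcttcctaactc

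H4 held the highest ratio of the family above both floors and a lower signal on the probe sets above the floor that name most of the class. H4C8 (HIST1H4H) had 572 in spheroid and 128 in monolayer culture, 4.47-fold higher, at percentile 99.4 of all probe sets above both floors. This probe set ends in _s_at, so its signal may include RNA of other genes. The second H4C8 probe set, without such an ending, had 313 in spheroid culture against 104 in monolayer culture, at least 2.89-fold higher. Since 128 lies close to the floor of 108, the first ratio rests on a dim monolayer signal, and a floor raised to the 75th percentile gave a log2 ratio of 0.26 in place of 2.16. H4C11 (HIST1H4J) had 174 in spheroid and 143 in monolayer culture, 1.22-fold.

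In the opposite direction, a probe set shared by 14 H4 genes, H4C8 and H4C11 included, had 504 in spheroid and 1219 in monolayer culture, 2.42-fold lower. A second probe set with the same 14 names had 29.6 in spheroid culture against 164 in monolayer culture, at least 1.37-fold lower, and the other 3 were at the floor in both. The probe sets named for H4C8 alone were therefore higher, while the 2 above the floor that share its name with other H4 genes were lower. Their log2 ratios ran from 2.16 to −1.27. The SD between log2 ratios of 2 probe sets of a gene was 0.50 over 5453 genes. It was taken from probe sets with a single gene name and is no measure for shared ones. Which transcripts each probe set bound was not tested. H4C1, H4C4, H4C5, H4C7, H4C9, H4C13 and the pseudogene H4C10P were at the floor in both cultures. The printed H4C8 promoter holds no match to any of the 3 motifs, and 3 of 13 H4 promoters of the clusters hold a CCAAT box, while every H1, H2A, H2B and H3 promoter of the clusters holds at least 1.
H4C8, chr6:26285535-26285784, minus strand: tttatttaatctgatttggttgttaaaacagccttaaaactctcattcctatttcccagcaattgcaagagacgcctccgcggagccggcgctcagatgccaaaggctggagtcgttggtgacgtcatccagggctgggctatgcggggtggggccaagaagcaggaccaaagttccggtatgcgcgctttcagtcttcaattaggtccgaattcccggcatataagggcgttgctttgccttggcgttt

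**Figure D2:**
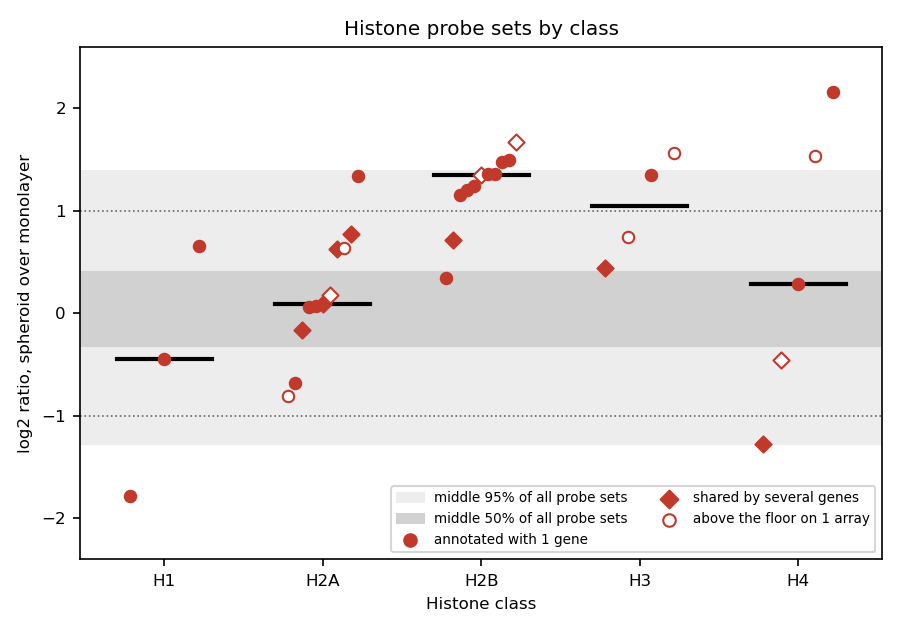
Log2 of the spheroid to monolayer signal ratio for the histone probe sets above the floor on at least 1 array, by class. Filled symbols are above the floor on both arrays and open ones on 1, circles have 1 gene name and diamonds several, black lines are class medians, dotted lines mark 2-fold, and grey bands hold the middle 50% (−0.32 to 0.40) and 95% (−1.27 to 1.39) of all probe sets. The H2B symbols sit together at or above 0.34, while the H2A median of 0.09 falls below 0 under either other scaling and H4 runs from −1.27 to 2.16.

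The linker histones were led by a gene outside the clusters that the naming rule includes. H1-10 (H1X), a replication-independent linker histone with polyadenylated RNA, had 1674 in spheroid and 5770 in monolayer culture, 3.45-fold lower. Its ratio was at percentile 0.990 of all probe sets above both floors, and it was the 1 member at least 3-fold lower. The H1-10 probe set ends in _s_at. H1-2 (HIST1H1C), the clustered linker gene known as polyadenylated RNA, had 1576 in spheroid and 1003 in monolayer culture, 1.57-fold higher. H1-3 (HIST1H1D) had 193 in spheroid and 262 in monolayer culture, 1.36-fold lower. With the log2 ratios of these 3 probe sets the H1 median was −0.44, but it was 0.29 with no floor, 0.55 with a floor at the 25th percentile and 0.10 without shared, _s_at and _x_at probe sets. H1-1, H1-4, H1-5 and H1-6 of the cluster and H1-7, H1-8, H1-9P and the antisense RNA H1-10-AS1 outside it were at the floor in both cultures. H1-6, H1-7 and H1-9P are known from testis and H1-8 from oocytes.

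The 6 clustered genes listed as known to make polyadenylated RNA were H1-2, H2AC6, H2BC4, H2BC5, H2BC12 and H2BC21. Their 7 probe sets were all above the floor in both cultures and all higher in spheroid culture, 5 of them at least 2-fold, with a median log2 ratio of 1.20. Of the 71 other probe sets 44 were at the floor in both cultures, 9 were higher by 2-fold or more and 2 lower by as much. For these counts and those by place, the shares over all probe sets above the floor were 6.48% higher and 4.59% lower by 2-fold or more. The median of the 27 of the 71 above the floor on at least 1 array was 0.63. For the 18 above the floor in both cultures, as all 7 of the first group were, it was 0.36. The 71 are not all without a tail, since they include H1-10, outside the clusters and with polyadenylated RNA. It was 1 of the 2 lower by 2-fold or more. By place, the HIST1 cluster on chromosome 6 held 59 probe sets, of which 25 were above the floor, 13 higher by 2-fold or more and none lower by as much. Not counted there were 5 probe sets whose H4 genes lie in HIST1, HIST2 and HIST4. Of these 5, 1 was at least 2-fold lower and none was higher by as much. The 4 probe sets of the HIST2 cluster on chromosome 1 were all above the floor with a median of 0.49, and none was past 2-fold. The share of the RNA that carried a tail was not measured.

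Counted by gene, with each gene read from its brightest probe set with a single name, 18 of 44 clustered histone genes were above the floor. Of these 8 were at least 2-fold higher, against 6.86% of all genes above the floor, and none was at least 2-fold lower, against 5.50%. The median log2 ratio was 0.70, against 0.04 for all genes. Genes that read cell division, listed apart from the histones, had the opposite direction. Of 39 S phase genes 38 were lower in spheroid culture, 34 at least 2-fold and 23 at least 3-fold, against 2.11% of all genes. None was past 3-fold in the other direction, against 2.34% of all genes. Their median log2 ratio was −1.81. PCNA, the clamp of the replication fork, had 10656 in spheroid and 19219 in monolayer culture, 1.80-fold lower. TYMS, which makes thymidylate, had 1886 in spheroid and 10971 in monolayer culture, 5.82-fold lower. RRM1, the large subunit of ribonucleotide reductase, had 1913 in spheroid and 7084 in monolayer culture, 3.70-fold lower. All 25 G2 and M phase genes were at least 3-fold lower, with a median of −3.70. Among them TOP2A, a topoisomerase needed in mitosis, had 541 in spheroid and 11691 in monolayer culture, 21.6-fold lower. PTTG1, the securin, had 477 in spheroid and 10740 in monolayer culture, 22.5-fold lower, and CDK1, the kinase that starts mitosis, had 575 in spheroid and 8885 in monolayer culture, 15.5-fold lower. The medians of the histone probe sets and of the S phase genes thus lay on opposite sides of 0 in the same pair of arrays, and each kept its sign under every scaling used.

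**Figure D3:**
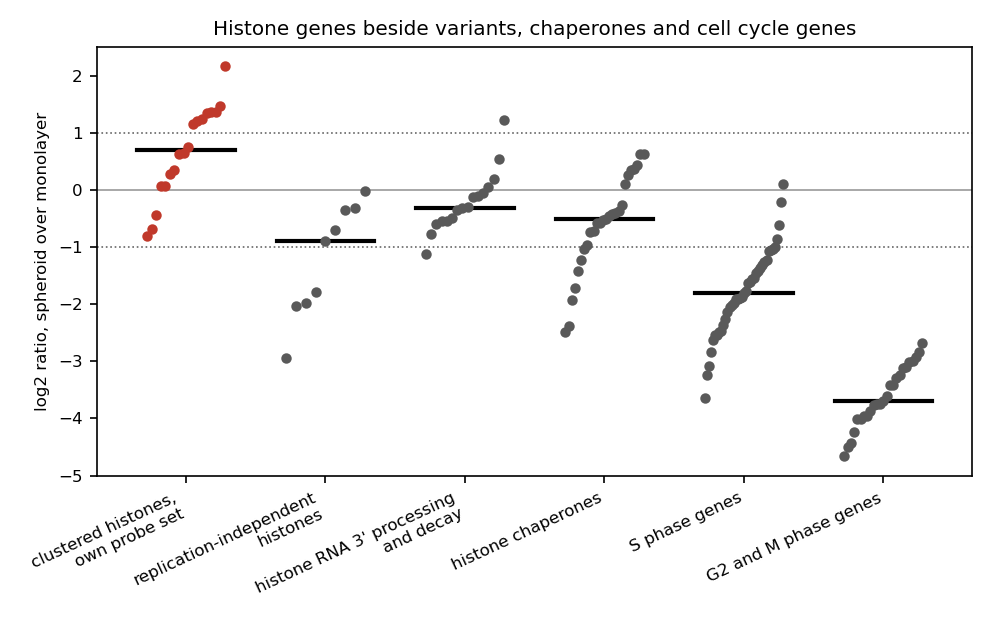
Log2 of the spheroid to monolayer signal ratio for single genes above the floor on at least 1 array, in 6 lists, with each gene read from its brightest probe set with a single name. Black lines are list medians and dotted lines mark 2-fold. The clustered histones have a median of 0.70, the S phase genes of −1.81 and the G2 and M phase genes of −3.70.

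The factors known to act on clustered histone genes had medians closer to 0 than the S phase list. Among 9 genes of their transcription none was higher by 2-fold or more, against 6.86% of all genes above the floor. Of the 9, 2 were lower by as much, against 5.50% of all genes, and the median was −0.34. CDK2, the kinase that with cyclin E switches on NPAT, had 539 in spheroid and 1920 in monolayer culture, 3.56-fold lower. E2F1, an S phase transcription factor, had 263 in spheroid and 547 in monolayer culture, 2.08-fold lower. NPAT, the coactivator of histone genes, had 346 in spheroid and 416 in monolayer culture, 1.20-fold lower, and HINFP, the factor that binds H4 promoters, had 287 in spheroid and 205 in monolayer culture, 1.40-fold higher. CCNE1, cyclin E1, had 902 in spheroid and 839 in monolayer culture, and it was the 1 S phase gene with a ratio above 1, at 1.08. YY1, a general factor, had 5721 in spheroid and 7245 in monolayer culture. CDK2 was thus the 1 gene of this list past 3-fold.

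Of 16 genes that process the stem-loop end of histone RNA or degrade it, 1 was higher and 1 lower by 2-fold or more. The shares over all genes above the floor were 6.86% higher and 5.50% lower, so both counts lie near them. The median was −0.31. SYMPK, the scaffold of the cleavage complex, had 886 in spheroid and 380 in monolayer culture, 2.33-fold higher. ZNF473, which joins the U7 particle to the RNA, had 321 in spheroid and 701 in monolayer culture, 2.18-fold lower. SLBP had 2152 in spheroid and 3145 in monolayer culture, 1.46-fold lower. CPSF3, the nuclease that cuts histone RNA, had 2644 in spheroid and 3872 in monolayer culture, 1.46-fold lower. SRRT (ARS2), which is known to promote this cleavage, had 2923 in spheroid and 3644 in monolayer culture. LSM10 and LSM11, the proteins particular to the U7 particle, had ratios of 1.03 and 0.780.

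Histone chaperones carry new histones to DNA. Of 26 measured, none was higher by 2-fold or more, against 6.86% of all genes above the floor. Of the 26, 7 were lower by as much, against 5.50%, and 4 of these at least 3-fold, against 2.11%. The median was −0.51. MCM2, a helicase subunit that also binds H3 and H4 and stands in the S phase list as well, had 416 in spheroid and 2341 in monolayer culture, 5.63-fold lower. HJURP, which deposits CENPA, had 670 in spheroid and 3491 in monolayer culture, 5.21-fold lower. CHAF1B, a subunit of the assembly factor CAF-1 at the fork, had 111 in spheroid culture, at the floor, against 453 in monolayer culture, at least 3.80-fold lower. MCM2 and CHAF1B work at the replication fork and HJURP after mitosis. ASF1B, an H3 and H4 chaperone tied to proliferation, had 342 in spheroid and 1124 in monolayer culture, 3.29-fold lower, while its paralogue ASF1A had 1261 in spheroid and 996 in monolayer culture, 1.27-fold higher. SSRP1, a subunit of FACT, had 1664 in spheroid and 4460 in monolayer culture, 2.68-fold lower. NASP, which holds soluble H3 and H4, had 1522 in spheroid and 3576 in monolayer culture, 2.35-fold lower, and ANP32E, which removes H2A.Z, had 2862 in spheroid and 5898 in monolayer culture, 2.06-fold lower. NAP1L1, an H2A and H2B chaperone, had 18563 in spheroid and 30455 in monolayer culture, 1.64-fold lower. RBBP7, a subunit of several H4-binding complexes, had 7369 in spheroid and 11022 in monolayer culture.

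Histones listed as replication-independent were set beside the clustered genes. Their RNA has a poly(A) tail, except for the stem-loop form of H2AX. Whether each is made evenly over the cell cycle was not tested. Of 10 measured 9 were above the floor and all 9 were lower in spheroid culture, with a median log2 ratio of −0.89. Of the 9, 4 were at least 3-fold lower, against 2.11% of all genes above the floor. H1-10, given above, is in both groups. CENPA, the centromere H3, had 174 in spheroid and 1342 in monolayer culture, 7.70-fold lower. MACROH2A2 had 201 in spheroid and 821 in monolayer culture, 4.10-fold lower. H2AX, whose RNA is known to end either in a stem-loop or in a tail, had 851 in spheroid and 3348 in monolayer culture, 3.93-fold lower, while a further pair of its probe sets above the floor had log2 ratios of −0.55 and 0.20. H2AZ1, the main H2A.Z gene, had 10500 in spheroid and 19490 in monolayer culture, 1.86-fold lower. Its other probe set had 9336 in spheroid and 20019 in monolayer culture, 2.14-fold lower. MACROH2A1 had 8472 in spheroid and 10798 in monolayer culture, 1.27-fold lower, but its dimmer probe sets had log2 ratios of up to 0.57. H2AZ2 had 4481 in spheroid and 5585 in monolayer culture, 1.25-fold lower, and its other probe sets were 2.43-fold, 1.75-fold and 1.19-fold lower. The 9 probe sets with the names of the H3.3 genes H3-3A or H3-3B had log2 ratios between −0.55 and 0.05. Leaving out probe sets with the endings _s_at and _x_at and shared ones moved the median of this list to −0.32.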

How the data were processed

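Total RNA of A549 cells at day 12 of spheroid or monolayer culture was labelled and hybridised to a single array. The intensities that the authors deposited are signals on a linear scale, 1 per probe set, and already scaled, with a trimmed mean of 499.9 on each array. MAS5 and GCOS stand in the submitters' processing notes, with no version given, and the study's methods name GeneSpring GX for later steps. Both samples also carry a description that speaks of hepatoma cells and a compound, which was not used. Genes were named from the platform annotation, with symbols brought up to date through Entrez identifiers.

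Of 54675 probe sets, 62 controls were left out. Signals under each array's median were raised to it. Log2 ratios were taken as spheroid over monolayer, without further scaling. Probe sets past 3-fold, and past 2-fold as a second limit, were counted. In gene lists a gene was read from the probe set with a single name and the highest mean log2 signal. With 1 array per culture no test was possible, and precision is limited by the number of arrays. For scale, the SD of the difference in log2 ratio between 2 probe sets of 1 gene was 0.50 (5453 genes), which is 0.35 for a single probe set. The histone members, gene lists, floor and limits were chosen with earlier results of these data known, and 1 list entry, HIST1H2BC, was entered by its current symbol H2BC4.

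Named with both signals were members past 2-fold, the 3 brightest genes of each class, genes whose probe sets differed by over 1 on the log2 scale and, of the other lists, members past 2-fold and the 3 brightest, while of the S phase and G2 and M phase lists the 3 brightest alone are given. The alternatives tried were a floor at the 25th or 75th percentile or none, division of each array by its median, quantile normalization, other choices of probe sets, 1 value per gene, limits of 2-fold and 5-fold, and leaving out the linker genes outside the clusters. The steps were tested on simulated data. Promoters came from the RefSeq table for GRCh38.p14. Software was Python 3.11.15, numpy 2.4.6, pandas 2.3.3 and, for plots, matplotlib 3.10.9.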

Additional observations from a re-analysis of the deposited data

How the results depend on the processing

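With 1 array per culture no replicate could be left out, and no paired analysis was possible because no result comes from a test. Dim signals limit the counts, with 44 of 78 histone probe sets at the floor. The count at least 3-fold higher, 2, was 8 with no floor, 5 with the floor at the 25th percentile and 0 with it at the 75th. It was 1 after division by the median, after quantile normalization, with single-gene probe sets only and with the brightest probe set per gene, and 0 without shared, _s_at and _x_at probe sets. The count at least 3-fold lower, 1, was 4 with no floor, 2 at the 25th percentile, and 0 without shared, _s_at and _x_at probe sets or without the linker genes outside the clusters. Limits of 2-fold and 5-fold gave 14 and 0 higher and 2 and 0 lower. The count at least 2-fold higher, 14, was 6 with the floor at the 75th percentile, 5 without shared, _s_at and _x_at probe sets, and 9 with the brightest probe set or the geometric mean per gene. The count at least 2-fold lower, 2, was 10 with no floor, 5 at the 25th percentile, 0 without shared, _s_at and _x_at probe sets, and 1 with single-gene probe sets, with the brightest or the geometric mean per gene, or without the linker genes. The median log2 ratio of all members, 0.68, was 1.15 with single-gene probe sets and ran from 0.35 to 1.15. Without a floor the H1 median was 0.29, in place of −0.44, the H2B median 0.93 and the H3 median 0.41. A floor at the 25th percentile gave 0.55 for H1 and 0.93 for H2B. Raising it to the 75th percentile gave medians of 0.70 for H2A, −0.51 for H4, −1.44 for S phase genes and −2.38 for G2 and M phase genes. Without shared, _s_at and _x_at probe sets they were 0.10 for H1, −0.31 for H2A, 1.46 for H3, 1.53 for H4 and −0.32 for replication-independent histones. The H4 median was also 1.53 with single-gene probe sets, 1.22 with the brightest and 1.08 with the geometric mean per gene, which put the G2 and M phase median at −3.25. The H1, H2A and H4 medians thus changed sign under at least 1 of these settings, and the cause was not tested. Division by the median put the median of all probe sets at −0.08 in place of 0.06. Of 160 values of 20 single genes 154 stayed within 0.35 of the main value, and the 10 genes past 2-fold kept their direction in 82 of 82. For a gene with both signals above the floor, a lower floor or the choice of single-gene probe sets leaves the ratio as it was. Many of these values therefore could not move, and the counts are no measure of precision.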

Other observations

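Chaperones known to place H3.3 outside replication were set apart from those named in the report. HIRA, which deposits H3.3 at active genes, had 585 in spheroid and 543 in monolayer culture, a ratio of 1.08. Its partners UBN1, UBN2 and CABIN1 were 1.29-fold, 1.54-fold and 1.20-fold higher. ATRX, which acts with DAXX at repeats, had 3855 in spheroid and 2505 in monolayer culture, 1.54-fold higher, while DAXX had 289 in spheroid and 433 in monolayer culture, 1.50-fold lower. None of these 6 genes was past 2-fold, and these 6 were picked from the chaperone list after their values were seen.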
